A study of Mus musculus with 8 samples.

Results

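The genes described here encode 10 antimicrobial peptides and proteins of the skin, chosen by name from the 55416 genes of the deposited count table. They are 5 beta-defensins (Defb1, Defb3, Defb4, Defb6 and Defb14), the cathelicidin Camp, the siderophore-binding lipocalin Lcn2, the protease inhibitor Slpi, and 2 peptidoglycan recognition proteins (Pglyrp3 and Pglyrp4). The data are RNA-seq of dorsal epidermis from mice at postnatal day 4, with 4 libraries labelled WT (called control here) and 4 labelled as epidermis Rora knockout (called Rora EKO here). Rora EKO mice carried Rora alleles flanked by loxP sites and a K14-Cre transgene. The keratin 14 promoter that drives this Cre is active in basal keratinocytes, so the deletion is inherited by the layers above, and cells of other lineages keep an intact gene. Controls were littermates, and whether they carried the floxed alleles or the Cre is not stated in the sources used here. Each library is named by the letter and number of its title, with A1, B1, C1 and C6 as controls and A3, B4, C2 and C3 as Rora EKO. What the letter stands for is not stated.

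Epithelia hold microbes back with secreted peptides as well as with the cornified layer. Beta-defensins and cathelicidin are small cationic peptides that permeabilise microbial membranes, and keratinocytes make some of them constantly and others only when injury, microbes or cytokines such as IL-17, IL-22 and IL-1 call for them. Lipocalin 2 withholds iron from bacteria by binding their siderophores, SLPI inhibits neutrophil elastase and has antimicrobial activity of its own, and PGLYRP3 and PGLYRP4 bind the peptidoglycan of bacterial cell walls. Levels are given in CPM, that is counts per 1000000 after scaling each library with its TMM factor. A gene was called higher or lower where the edgeR quasi-likelihood test gave a Benjamini-Hochberg adjusted p under 0.05 and the fold change was over 1.5.

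Library totals ran from 17286903 to 26705533 counts. After TMM scaling 3 counts, taken as the limit of detection in a library, correspond to between 0.113 CPM (C6) and 0.196 CPM (A3). Counts of the targeted gene Rora did not separate the genotypes. They ran from 157.7 to 308.7 CPM in the controls and from 153.7 to 236.8 CPM in the libraries labelled Rora EKO (log2 fold change -0.11, adjusted p = 0.877 by the quasi-likelihood test), and a gene-level count does not show whether the floxed exon was read. The controls C1 and C6 held 415.8 and 527.4 CPM of Xist, the RNA of the inactive X chromosome in females, and the other 6 libraries held at most 0.0546 CPM, so this difference fell among the controls only. Keratinocyte genes dominated all libraries, with Loricrin from 2917 to 4801 CPM, while Col1a1, a collagen gene of dermal fibroblasts, stayed between 0.142 and 1.69 CPM. Krt10 ran from 17165 to 27549 CPM in controls and from 34246 to 46176 CPM in Rora EKO. It was not called (adjusted p = 0.274 by the quasi-likelihood test), and its part in the levels of the antimicrobial genes was not tested.

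The 5 defensin genes lie on the plus strand of chromosome 8 in GRCm39, with 2 exons each. Defb14 (19244373 to 19245228), Defb4 (19248722 to 19251561), Defb6 (19275494 to 19278225) and Defb3 (19343376 to 19345350) stand close together, and only 3493 bases separate Defb14 from Defb4. Defb1 (22266584 to 22285201) lies apart from them, beside the alpha-defensin gene Defa24. The peptidoglycan recognition genes are both on chromosome 3, Pglyrp4 (90634213 to 90648824) at a distance of 31141 bases from S100a9 and Pglyrp3 (91921890 to 91938889) at 48688 bases from Loricrin. Defb3 and Defb6 are shown here as coding sequences from the GENCODE release 39 transcripts, because they are close relatives whose RNA was distributed very differently over the libraries. Capitals mark the codons of the 6 cysteines that form the disulfide bonds of the folded defensin.
Defb3: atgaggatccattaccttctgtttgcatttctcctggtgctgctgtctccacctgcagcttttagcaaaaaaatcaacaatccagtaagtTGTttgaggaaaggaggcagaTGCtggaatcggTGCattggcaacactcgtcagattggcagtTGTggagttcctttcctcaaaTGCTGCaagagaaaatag
Defb6: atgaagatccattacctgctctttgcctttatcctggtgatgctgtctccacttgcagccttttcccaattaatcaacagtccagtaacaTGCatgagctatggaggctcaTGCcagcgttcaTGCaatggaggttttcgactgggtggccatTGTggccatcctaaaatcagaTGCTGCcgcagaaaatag

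Both reading frames are 192 bases long and encode 63 residues, and 138 of 192 aligned bases (71.9%) are identical. Among the other defensins the identity of coding sequences ran from 48.6% between Defb1 and Defb14 to 78.6% between Defb4 and Defb6. No stretch of 50 bases of the Defb1, Defb3, Defb6 or Defb14 transcripts occurs in the transcript of another gene, whereas 23 of the 405 such stretches of Defb4 (5.68%) also occur in Defb8, which had no count in any library. Pglyrp3 and Pglyrp4 share 65.8% of aligned coding bases and no stretch of 50. The annotated span of Slpi (chromosome 2, 164195990 to 164231015, minus strand) overlaps Matn4 and Mir7678 on the same strand, and that of Pglyrp3 overlaps the pseudogene Mif-ps3, so reads from these overlaps are less certain.

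Promoter sequence of 300 bases around the start site was available from RefSeq (GRCm38.p6) for Camp, Defb3, Defb6, Lcn2 and Slpi. The letters AGGTCA, the core half-site of ROR receptors, were searched on both strands and occur in 0 of these 5 windows, against 16.3% of 32851 windows in all. The letters TGAGTCA, an AP-1 site, also occur in 0 of 5, against 5.20% of all. These counts describe the windows searched and say nothing on binding of either factor.

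In control epidermis the 10 genes fell into an abundant and a scarce set. Per kilobase of exon, Defb1 was highest with 50.5 ± 9.41 CPM (SD, n = 4), and its lowest control library (38.6) stood above every other member. Pglyrp4 followed with 13.6 ± 3.43 CPM per kilobase and Defb6 with 12.4 ± 5.80, and these neighbours in the order overlapped in range (8.49 to 15.7 against 6.60 to 19.9). Pglyrp3 came next with 3.01 ± 1.17 CPM per kilobase, below the lowest values of both. The remaining 6 genes were at 0.168 CPM per kilobase or lower in the mean of the controls, led by Slpi. Without length scaling, Defb1 and Pglyrp4 together made up between 88.7 and 94.1% of the summed CPM of the 10 genes in controls and between 82.1 and 90.8% in Rora EKO.

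**Figure D1:**
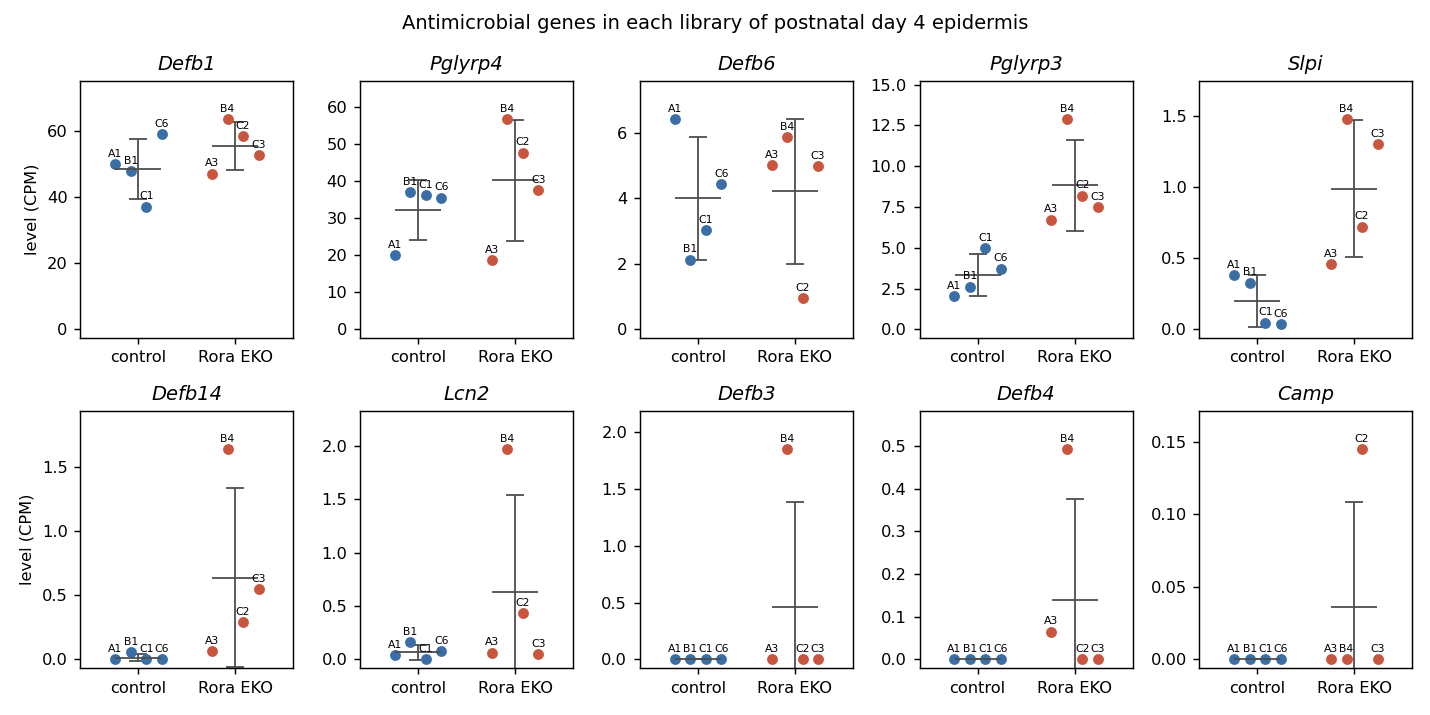
Level of each gene (y axis, CPM, each panel with its own scale) in control and Rora EKO libraries, with 1 point per library and a bar for the mean ± SD (n = 4). Defb1, Pglyrp4 and Defb6 overlap between the genotypes, Pglyrp3 and Slpi do not, and library B4 is the highest point in 8 of the 10 panels.

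Only 4 of the 10 genes had enough counts to be tested across all genes, and 1 of them, Pglyrp3, was called higher in Rora EKO. None was called lower by the quasi-likelihood test or by DESeq2 (4.21% of all tested genes were by DESeq2). At an unadjusted p under 0.05 in the quasi-likelihood test 0 were lower, against 10.3% of all tested genes. With only 4 genes tested, these counts of 0 carry little information. Over all 13147 genes tested, 2.30% were called higher and 3.22% lower. The median log2 fold change of the 4 was 0.26, beside -0.04 over all tested genes.

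Pglyrp3 encodes a secreted recognition protein that kills bacteria by binding their cell wall. It was measured at 2.02, 2.62, 4.97 and 3.72 CPM in controls A1, B1, C1 and C6, and at 6.72, 12.9, 8.19 and 7.49 CPM in Rora EKO A3, B4, C2 and C3. Every Rora EKO library was above every control, a separation that 5.40% of all tested genes showed in this direction. None of the 4 tested genes was separated in the other direction, against 7.54% of all tested genes. The means were 3.33 ± 1.30 and 8.82 ± 2.76 CPM (SD, n = 4 each), a 2.65-fold difference (log2 fold change 1.41, SE 0.343, adjusted p = 0.0281 by the quasi-likelihood test). An exact two-sided permutation test of log2(CPM + 0.5) gave p = 0.0286, the smallest that 70 splits of 4 and 4 libraries allow. The gene passed the filter on low counts in both genotypes, with at least 48 counts in each library.

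The size of the Pglyrp3 difference was steadier than its call. Its log2 fold change stayed between 1.17 and 1.99 over 19 alternatives, and it passed both cutoffs in 14 of them. Leaving out a single library ended the call for B1 (adjusted p = 0.0952), C6 (0.0529), B4 (0.0711), C2 (0.0502) and C3 (0.0569), all by the quasi-likelihood test. Without B4, the highest library, the Rora EKO mean was 7.47 ± 0.735 CPM and the log2 fold change 1.17. In the 6 libraries with Xist near 0, which leave out the 2 controls with the highest Pglyrp3, the log2 fold change was 1.99 (adjusted p = 0.0279). Within each title letter the Rora EKO libraries were higher, by 1.52 on the log2 scale for A, 2.10 for B and 0.79 for C, with 1 library per genotype in A and B and 2 in C.

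**Figure D2:**
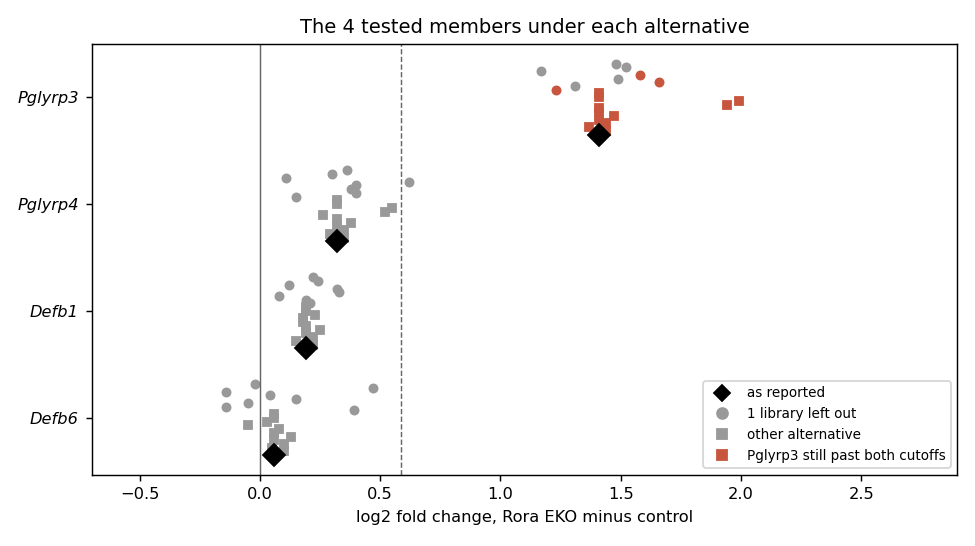
Log2 fold change (x axis, Rora EKO minus control) of the 4 tested genes as reported (black diamond), with 1 library left out (circles) and under the other alternatives (squares), where red marks fits in which Pglyrp3 passed both cutoffs. The dashed line is the fold change cutoff of 1.5, and Pglyrp3 lies between 1.17 and 1.99 throughout while Defb6 falls on both sides of 0.

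Pglyrp4, its relative at the S100a9 end of the same gene complex, did not pass the test. Controls held 20.1, 37.1, 36.2 and 35.6 CPM (A1, B1, C1, C6) and Rora EKO libraries 18.7, 56.9, 47.8 and 37.7 CPM (A3, B4, C2, C3). The lowest library of both genotypes carried the letter A, and the ranges overlapped. The log2 fold change was 0.32 with an SE of 0.41 (adjusted p = 0.687 by the quasi-likelihood test), and it fell to 0.11 without B4.

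Set against Pglyrp4 in the same library, Pglyrp3 counts amounted to 10.04, 7.07, 13.7 and 10.4% in the controls A1, B1, C1 and C6. In Rora EKO the ratio was 35.9% in A3, 22.6% in B4, 17.1% in C2 and 19.8% in C3. All 4 were above the highest control. This ratio does not depend on the scaling of the libraries, and its log2 differed by 1.19 between the genotypes (SE 0.303, exact two-sided permutation p = 0.0286). The ratio was chosen after the values of both genes had been seen and contains the Pglyrp3 difference already described.

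Defb1, the defensin that epithelia make constantly, was the most abundant of the 10 genes in both genotypes. It was measured at 49.9, 47.8, 37.0 and 59.0 CPM in controls A1, B1, C1 and C6, and at 47.0, 63.5, 58.3 and 52.5 CPM in A3, B4, C2 and C3. The ranges overlapped over most of their length. The means of 48.4 ± 9.01 and 55.3 ± 7.15 CPM (SD, n = 4) differed by a log2 fold change of 0.19 (SE 0.167, adjusted p = 0.608 by the quasi-likelihood test).

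Defb6, also a defensin of skin and other epithelia, varied more among libraries of a genotype than between the genotypes. Controls A1, B1, C1 and C6 held 6.43, 2.13, 3.03 and 4.43 CPM. The Rora EKO libraries A3, B4 and C3 lay close together, at 5.02, 5.88 and 4.99 CPM, and C2 held only 0.964 CPM from 20 counts. The log2 fold change was 0.06 (SE 0.678, adjusted p = 0.975 by the quasi-likelihood test), and its sign turned when B1, C1, B4 or C3 was left out. Without C2 it was 0.47 (adjusted p = 0.631).

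The other 3 defensins were at or under the detection limit in all controls and were read mainly in 1 Rora EKO library. Defb3 gave 45 counts (1.85 CPM) in B4 and none in the 7 other libraries. Defb4 gave 12 counts (0.493 CPM) in B4, 1 count in A3 and none elsewhere. The sequences printed above show how close Defb3 and Defb6 are, yet Defb6 was read in all 8 libraries and in B4 its 143 counts were not set apart from those of A3 or C3.

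Defb14, an inducible defensin of keratinocytes, was read more widely. It had 1 count in control B1 and none in the other controls, against 1, 40, 6 and 11 counts in A3, B4, C2 and C3 (0.0653, 1.64, 0.289 and 0.549 CPM). The values of A3 and B1 are both a single count and differ only through library size, so the lack of overlap between the genotypes rests on 3 libraries. Summed over libraries, 58 counts against 1 gave a ratio of 66.6 with an exact 95% interval of 11.5 to 2674.3, and without B4 it was 29.6 (4.68 to 1234.2). These intervals cover counting error only. The exact two-sided permutation p was 0.0286. The gene did not pass the count filter. With every gene of at least 1 count tested it was called higher (adjusted p = 0.0189 by the quasi-likelihood test), and among the 6 libraries with Xist near 0 it was not (adjusted p = 0.216).

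Slpi, an inhibitor of the serine proteases of neutrophils, was low in all libraries. Controls A1, B1, C1 and C6 gave 10, 6, 1 and 1 counts (0.381, 0.328, 0.0473 and 0.0375 CPM), and A3, B4, C2 and C3 gave 7, 36, 15 and 26 counts (0.457, 1.48, 0.723 and 1.30 CPM). The genotypes did not overlap, but A3 was close to the highest control. The ratio of summed counts was 5.36 (95% interval 3.19 to 9.47) and 4.39 without B4 (2.51 to 8.02). These intervals cover counting error only and leave out the spread between libraries. The exact two-sided permutation p was 0.0286. The 2 controls with a single count were the Xist-positive ones. Among the 6 libraries without Xist the log2 fold change was 1.53 (adjusted p = 0.269 by the quasi-likelihood test). Slpi passed the filter in 5 of the 8 fits with a library left out and was called higher in 1 of them, without A1 (adjusted p = 0.0494).

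Lcn2, whose product starves bacteria of iron, gave 1, 3, 0 and 2 counts in controls A1, B1, C1 and C6. In Rora EKO it gave 1 count in A3, 48 in B4 (1.97 CPM), 9 in C2 (0.434 CPM) and 1 in C3. A3 and C3 were at the level of the controls, so the genotypes overlapped (exact two-sided permutation p = 0.229). The ratio of summed counts dropped from 11.3 (95% interval 4.89 to 32.0) to 3.02 (1.02 to 9.94) without B4. Both intervals cover counting error only and leave out the spread between libraries.

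Camp, the only cathelicidin gene of the mouse and abundant in neutrophil granules, had 3 counts in all, each of them in C2 (0.145 CPM). Its level in the other 7 libraries, with a count of 0, was not detectable at this depth. C2 was also the library with the most RNA of neutrophil granule genes, with 1.59 CPM of Ngp against at most 0.457 CPM elsewhere and 0.385 CPM of Ltf. Of 13 neutrophil markers 1, Itgam, had enough counts to be tested (log2 fold change -0.18, adjusted p = 0.839 by the quasi-likelihood test). Their summed level ran from 2.84 to 6.01 CPM in controls and from 3.25 to 10.4 CPM in Rora EKO, and Elane was at 0 in all 8 libraries. Itgam alone held 2.24 to 4.77 CPM of this sum in controls, and from 2.34 CPM (B4) to 3.90 CPM (C2) in Rora EKO. In B4 the sum was 3.25 CPM, with 9 of the 13 markers at 3 counts or fewer, against 8 to 11 of 13 in the controls and 4 in C2.

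B4 thus held most of the counts of Defb3, Defb4, Defb14 and Lcn2, but not of Slpi or Camp. It was the highest of the 8 libraries for 8 of the 10 genes (all but Defb6 and Camp). Among genes with enough counts to be tested it was highest for 3 of the 4 described here and for 12.8% of all 13147; the 5 scarce genes among the 8 lie outside that comparison. Against the controls, 8 of the 10 genes were above every control in B4, 6 in C2, and 4 each in A3 and C3. Of the 4 tested genes alone, 3 were so in B4, 2 in C2, 2 in C3 and 1 in A3, against 20.2, 22.3, 18.9 and 16.6% of all tested genes. The genes above every control in all 4 Rora EKO libraries were Pglyrp3, Slpi and Defb14, of which only Pglyrp3 was among the tested genes, where 5.40% showed this. Defb3, Defb4 and Defb14 lie in the same cluster on chromosome 8, but Lcn2, also highest there, is on chromosome 2.

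Several other genes were also highest in B4. Il17c, a cytokine that epithelial cells make and that acts on them to raise defensins, had 34 counts in B4 (1.40 CPM) and at most 1 in any other library. Nod2, an intracellular sensor of peptidoglycan fragments, was at 5.71 CPM in B4, 0.718 to 1.35 CPM in the other Rora EKO libraries and 0.328 to 0.723 CPM in controls. S100a9, a subunit of the antimicrobial calprotectin, was at 60.9 CPM in B4, 3.78 to 10.6 CPM in A3, C2 and C3, and 1.23 to 4.68 CPM in controls. Its partner S100a8 did not follow it, with 10.1 CPM in B4 and 15.1 CPM in control A1.

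Of 4 keratins of stressed epidermis, Krt6a, Krt6b and Krt16 had their maximum in the same library and Krt17 did not. Krt6a reached 110.7 CPM in B4 against 15.3 to 24.2 CPM in A3, C2 and C3 and at most 9.87 CPM in controls, and Krt16 reached 2610 CPM against 1030 to 1280 and at most 192.7 CPM. Both genes, and Krt6b, were called higher in Rora EKO (adjusted p = 0.044 for Krt6a, 0.0183 for Krt6b and 0.000911 for Krt16 by the quasi-likelihood test). That is 3 of the 4, where 2.30% of all tested genes were. The study had already named these 3 genes as raised from the same RNA-seq, so the count is not independent of it. Krt17 was at 1107 CPM in B4, the lowest of the Rora EKO libraries, with up to 1837 CPM in A3 and 716.8 to 1765 CPM in controls (log2 fold change 0.18, adjusted p = 0.847 by the same test). Keratins of the basal layer were also highest in B4, with 705.7 CPM of Krt14 against 61.1 to 202.6 CPM in the 7 others, and 371.0 CPM of Krt5 against 63.4 to 262.5 CPM. The other 2 basal markers were also higher in B4 than in the other Rora EKO libraries, but within or close to the range of the controls. Col17a1 was at 52.1 CPM in B4, 10.6 to 15.1 CPM in A3, C2 and C3 and 13.4 to 53.6 CPM in controls. Itga6 was at 5.88 CPM in B4, 2.12 to 2.94 CPM in A3, C2 and C3 and 3.12 to 5.87 CPM in controls. The summed level of all 4, most of it Krt14 and Krt5, was 1135 CPM in B4, 187 to 283 CPM in A3, C2 and C3 and 150 to 465 CPM in controls. In bulk RNA, more cells of a type and more RNA per cell cannot be told apart, and the part of these differences in the levels of the antimicrobial genes was not tested.

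**Figure D3:**
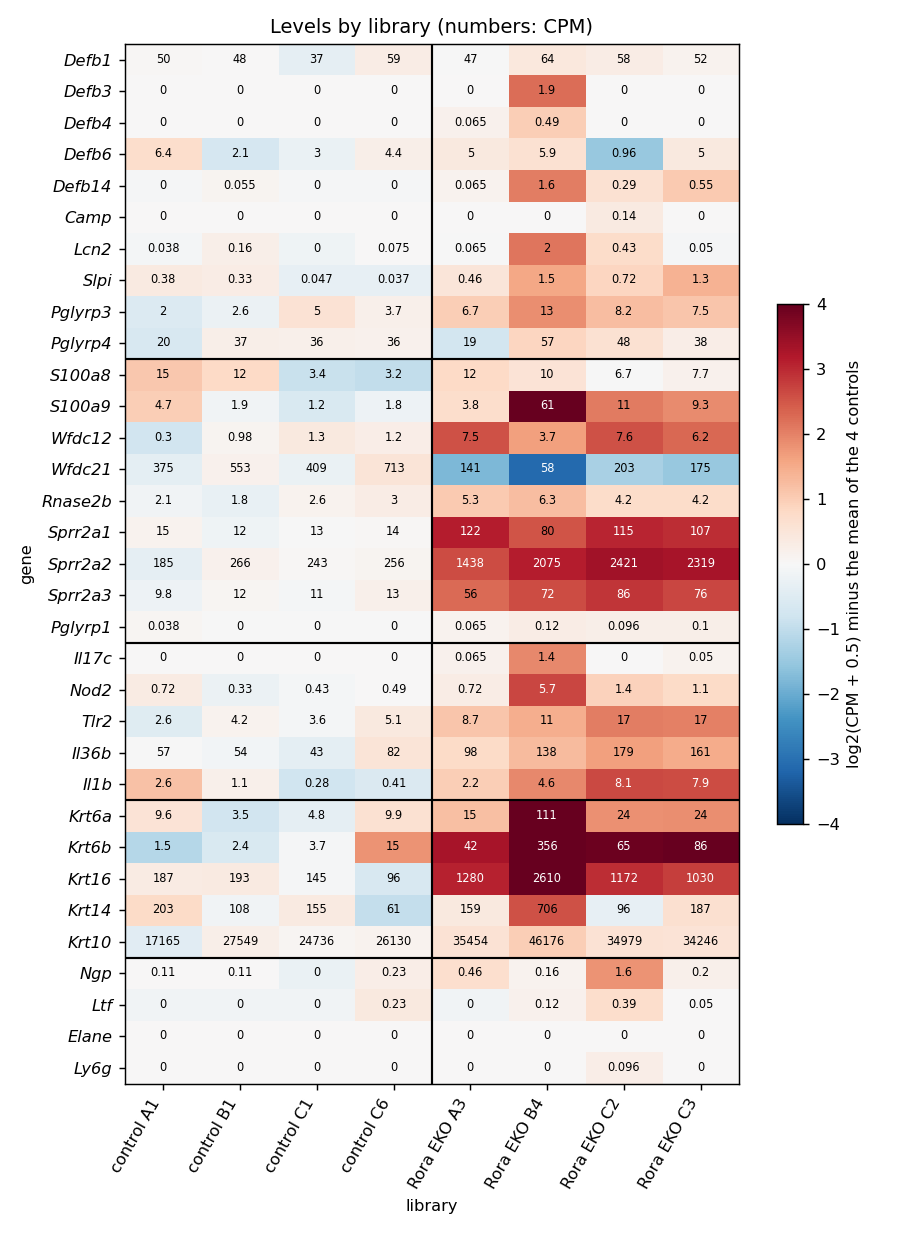
Levels of the 10 genes and of genes named beside them (rows) in the 8 libraries (columns), with CPM printed in each cell and the colour showing log2(CPM + 0.5) minus the mean of the controls, saturating at 4. Defb3, Defb4, Defb14, Lcn2, Il17c, Nod2 and S100a9 are highest in B4, while Wfdc12 and the Sprr2a genes are higher in all 4 Rora EKO libraries.

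The wider set of antimicrobial genes was read from a list of 38 others, of which 17 had enough counts to be tested and 11 had no count at all, among them Defb2, Defb5, Defb7 and Defb8. Of the 17, 5 were called higher in Rora EKO (2.30% of all tested genes were) and 1 lower (3.22%), with a median log2 fold change of 0.47 beside -0.04 over all genes. The 5 include Sprr2a1, Sprr2a2 and Sprr2a3, near-identical copies whose calls are not independent of each other. The study had already reported raised Sprr genes from the same RNA-seq. Wfdc12, a relative of Slpi from the same cluster of protease inhibitor genes on chromosome 2, was at 0.305 to 1.28 CPM in controls and 3.74 to 7.56 CPM in Rora EKO (log2 fold change 2.75, SE 0.476, adjusted p = 0.00456). In B4 it was the lowest of the Rora EKO libraries, unlike Slpi. Wfdc21, of the same protein family but on chromosome 11, was lower in Rora EKO, at 57.6 to 202.6 CPM against 375.3 to 713.4 CPM in controls (log2 fold change -1.83, SE 0.458, adjusted p = 0.018). Both p-values are from the quasi-likelihood test. The call of Wfdc21 was lost without B1, with Xist as a covariate and in the 6 libraries with Xist near 0.

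Small proline-rich proteins build the cornified envelope, and SPRR2A has antibacterial activity as well. Sprr2a1, Sprr2a2 and Sprr2a3 rose by log2 fold changes of 2.97, 3.12 and 2.67 (adjusted p = 2.3e-05, 0.000115 and 4.4e-05 by the quasi-likelihood test). The annotated spans of the first and second overlap and all 3 are near-identical copies, so how their reads were divided is uncertain. They lie between 184216 and 253834 bases from Pglyrp3. Rnase2b, of the eosinophil-associated ribonucleases, rose by a log2 fold change of 1.06 (adjusted p = 0.0271 by the quasi-likelihood test), a call lost without B1, C1, A3, B4 or C3 and in the 6 libraries with Xist near 0. Rnase4 passed the test on p (adjusted p = 0.0338) with a log2 fold change of 0.47, under the fold cutoff. By the quasi-likelihood test S100a9 did not pass (log2 fold change 3.14, adjusted p = 0.061), nor did S100a8 (0.11, adjusted p = 0.949). S100a9 was called higher by DESeq2, with every gene of at least 1 count tested, at an adjusted p cutoff of 0.1, and without A1 or without A3. Pglyrp1, the family member stored in neutrophil granules, had 9 counts in all 8 libraries.

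**Figure D4:**
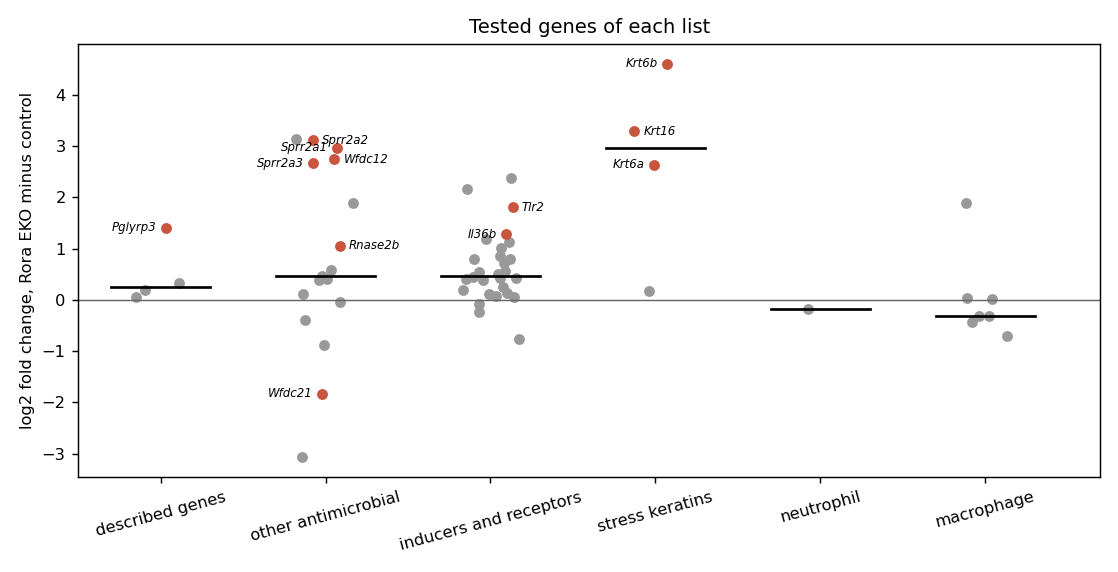
Log2 fold change (y axis, Rora EKO minus control) of every tested gene in 6 gene lists, with genes past both cutoffs in red and named, the others in grey, and the median of each list as a bar. The 10 genes described here contribute 4 points, of which Pglyrp3 is red.

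A further list of 38 genes held cytokines, receptors, signalling proteins and transcription factors that act on antimicrobial genes of keratinocytes. Most are inducers or sensors, but the list also holds the IL-36 receptor antagonist Il36rn, the vitamin D enzyme gene Cyp27b1, and Il4, Il13 and their receptor genes, whose cytokines lower such genes. Of the 38, 28 were tested. Il36b and Tlr2 (2 genes) were called higher in Rora EKO and none lower by the quasi-likelihood test, where 2.30% of all tested genes were called higher and 3.22% lower. At an unadjusted p under 0.05, 14 of the 28 were higher and 1 (Il22ra1) lower, against 7.92% and 10.3% of all tested genes. DESeq2 called 7 higher and 0 lower, against 3.64% and 4.21% of all. The median log2 fold change of the 28 was 0.47, beside -0.04 over all genes. Il36b, an IL-1 family cytokine of keratinocytes, was at 43.3 to 81.9 CPM in controls and 97.6 to 178.6 CPM in Rora EKO (log2 fold change 1.28, SE 0.269, adjusted p = 0.011). Tlr2, the receptor for bacterial lipoproteins, was at 2.59 to 5.14 CPM and 8.68 to 17.3 CPM (log2 fold change 1.81, SE 0.316, adjusted p = 0.00533). B4 was not the highest library for either, and both were called without it. Nod2 did not pass (log2 fold change 2.17, adjusted p = 0.0953). Of the T-cell cytokines that induce Lcn2 and the defensins, Il17a, Il17f and Il22 had no count in any library. This allows a level of up to 0.113 CPM (C6) to 0.196 CPM (A3) per library, the limit of detection.

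By the correlation of log2 CPM over the 8 libraries, the tested genes most like Pglyrp3 were Lsg1 (r = 0.998), Ssbp2 (0.982) and Csnk1a1 (0.978), which include both genotypes in each value. Their own differences were small. Lsg1, for a GTPase of ribosome maturation, was at 15.8 ± 1.56 CPM in controls and 20.5 ± 1.35 CPM in Rora EKO (SD, n = 4), a log2 fold change of 0.38 beside 1.41 for Pglyrp3.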

How the data were processed

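Epidermis was peeled from dorsal skin after heating, and polyA RNA was sequenced as read pairs in 4 control and 4 Rora EKO libraries. Per the labels and the study's methods, reads were demultiplexed with bcl2fastq 2.20.0.422, trimmed with Skewer and mapped to GRCm39 with STAR 2.5.3a, and the authors estimated counts with RSEM. The deposited values are these expected counts of 55416 Ensembl genes, with no scaling; the annotation release and strand setting are not given in the sources used here. Symbols and positions were taken from GENCODE release 39 (54749 identifiers matched). Counts were rounded, filtered with filterByExpr at its default settings (13147 genes kept), TMM-scaled and fitted in edgeR 4.0.16 (R 4.3.3) with glmQLFit and glmQLFTest in their legacy form and no covariate. Standard errors come from log2 CPM with a prior count of 2. Permutation tests (scipy 1.17.1) were run for genes with at least 10 counts in all, and their p-values are unadjusted. DESeq2 1.42.0, other scalings, filters and cutoffs, Xist as a covariate, the title letter as a block and leaving out each library were tried. The genes and lists were chosen with earlier results of these data known. Named were all 10 genes, genes of the wider lists past both cutoffs, S100a8, S100a9, Pglyrp1, Nod2, Tlr2, set markers, and the 3 genes most correlated with each called gene; Il17c, Krt5, Col17a1, Itga6, Krt17, Krt6a, Krt6b, Rnase4, Il22ra1, Itgam, Pglyrp2, S100a7a, Il1b and Wfdc18 were singled out after their values were seen. The labels tie no library to an animal or litter, so p-values measure the spread between these libraries.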

Additional observations from a re-analysis of the deposited data

Results flagged for a closer look

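A gap test (Dixon's, at its 95% level, on log2(CPM + 0.5)) was applied to the 4 libraries of each genotype for 48 genes with at least 10 counts that are given with values of their own. It marked 11 of 96 groups. In 5 of these (Defb3, Defb14, Wfdc18, Ltf and Xist) the other 3 libraries were at 0, where any count at all is marked. The rate of about 1 in 20 that chance gives cannot be set against these 5. Nor does it hold for the other 6, because genes among them (Il17c, Krt5 and Pglyrp2) were singled out after their values were seen. Over 96 groups some marks arise by chance, so a mark describes a gap and does not show that a library differs. Of the 11, 5 were in Rora EKO B4. Defb3 was far above its group there, with 1.85 CPM from 45 counts against 0 in the other 3 libraries. Il17c was likewise far above its group in B4, with 1.40 CPM from 34 counts against at most 0.0653 CPM. The keratins Krt5 and Krt10 were marked there too, Krt5 with 371.0 CPM against 63.4 to 78.1 CPM and Krt10 with 46176 CPM against 34246 to 35454 CPM. Wfdc18 had 0.247 CPM (6 counts) in B4 and 0 in the other Rora EKO libraries. Defb6 was far below its group in Rora EKO C2, with 0.964 CPM against 4.99 to 5.88 CPM. Pglyrp4 was far below its group in control A1, with 20.1 CPM against 35.6 to 37.1 CPM. The remaining 4 marks rest on 6 counts or fewer. Ltf had 0.225 CPM in control C6 and 0 in the other controls, and Pglyrp2 had 0.219 CPM in control B1 against 0.0947 to 0.114 CPM. A single count marked Defb14 in control B1 at 0.0546 CPM and Xist in Rora EKO C3 at 0.0499 CPM. Defb4, Defb14, Lcn2, S100a9 and Nod2 were also highest in B4 but did not pass the test's cutoff in that group. For Defb4 this turned on a single count in A3, beside 12 counts in B4 and 0 in C2 and C3.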

How the results depend on the processing

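Of the 4 tested genes, Defb1 and Pglyrp4 kept a positive log2 fold change and stayed uncalled under all 19 alternatives. Defb6 turned sign with Xist as a covariate (-0.05) and ran from -0.14 to 0.47 as single libraries were left out, never called. With every gene of at least 1 count tested, 2 of the 10 genes were called higher (Defb14 joined Pglyrp3), and as single libraries were left out the count ran from 0 to 2. No alternative called any of them lower. Of the other antimicrobial genes, the 1 called lower became 2 (Wfdc18 joined Wfdc21) by DESeq2, by the non-legacy quasi-likelihood test, with the title letter as a replicate block and at an adjusted p of 0.1, became 0 with Xist as a covariate and in the libraries with Xist near 0, and ran from 0 (without B1) to 2 (without B4) as libraries were left out; the number called higher ran from 4 to 7. The 2 inducer and receptor genes called higher became 7 by DESeq2, 6 with every gene of at least 1 count, 5 with the replicate block and 6 at an adjusted p of 0.1, and ran from 2 to 6 as libraries were left out, with 5 without A1 and 6 without A3. Apart from settings that change the cutoff or the libraries by construction, the cause was not tested. The letters were not taken as pairs: deviations of libraries with the same letter correlated by 0.483 for A, 0.0498 for B and 0.131 to 0.436 for C. The block changed no call among the 10 genes. The median log2 fold change of all genes was -0.04 with TMM, -0.01 with RLE and -0.10 with library size alone. For Camp, Defb3, Defb4, Defb14 and Lcn2 the depth sets the limit, as most libraries held 3 counts or fewer.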

Other observations

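The remaining peptidoglycan recognition genes were read at the edge of detection. Pglyrp2, which encodes an amidase that cleaves peptidoglycan, stood at 0.114, 0.219, 0.0947 and 0.113 CPM in controls A1, B1, C1 and C6 and at 0.261, 0.534, 0.289 and 0.499 CPM in Rora EKO A3, B4, C2 and C3, from 45 counts in all. The genotypes did not overlap, but control B1 and Rora EKO A3 both held 4 counts and differ only through library size. The gene was too low to be tested across all genes (exact two-sided permutation p = 0.0286, n = 4 each). Pglyrp1 was at 0 to 0.0381 CPM in controls and 0.0653 to 0.123 CPM in Rora EKO, at or under 3 counts in every library. S100a7a, next to S100a8 on chromosome 3, was abundant in both genotypes, from 69.6 to 342.1 CPM in controls and from 119.3 to 239.1 CPM in Rora EKO, with a log2 fold change of -0.05 (adjusted p = 0.981 by the quasi-likelihood test).

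Il1b, which encodes an inducer of Lcn2 and defensins, did not follow B4. It was highest in C2 and C3, at 8.05 and 7.94 CPM, with 4.64 CPM in B4, 2.22 CPM in A3 and 0.284 to 2.59 CPM in controls (log2 fold change 2.37, adjusted p = 0.0696 by the quasi-likelihood test).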
